A study of Aspergillus niger with 27 samples.

Results

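Of the 11846 gene models counted in colonies of the filamentous fungus Aspergillus niger, 39 stood higher over both plant residues than over glucose and are described here. Each library holds RNA from the mycelium over 1 compartment of a pie-plate, a dish of separate liquid compartments under a membrane that hyphae cannot cross. Sugar beet pulp filled compartments 4, 5 and 6, wheat bran filled 7, 8 and 9, and glucose filled 1, 2 and 3. Each of 3 plates, labelled A, B and C, carried 1 colony grown outward from the centre, which gave 27 libraries, with n = 3 plates behind every compartment mean. The plate is the replicate, all colonies met all substrates at the same time, and no library comes from a colony grown on 1 substrate alone. Per the labels' protocols, 1 compartment in a section has like neighbours and the remaining ones touch a different carbon source, but which number is which is not stated. Strain and culture age are not given in the labels used here.

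The members were chosen by their measured levels. Counts were scaled by median-of-ratios size factors, averaged per plate over the 3 compartments of a substrate and then over plates. A member has a mean scaled count of at least 50 on both residues, at least 2.5 times its glucose mean on each, residue means within 3-fold of each other, and both residue means above glucose on every plate. Genes with compartment 6 at least 3 times compartment 4 and compartment 7 at least 3 times compartment 9 were left out, as were the 20 largest raw counts of any column. Of 7627 genes past the level of 50, 90 met the fold on both residues, 68 of these lay within 3-fold, and 59 were above glucose on each plate. The compartment condition then removed 19 genes and the abundance condition 1. All ratios to glucose below are therefore the values that chose the members, given without a test.

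Aspergillus niger feeds on plant debris by secreting enzymes that split polysaccharides and by importing the sugars released. Sugar beet pulp is rich in pectin, while wheat bran is rich in arabinoxylan and starch. In this fungus, sugars released from a polymer act as inducers through dedicated transcription factors, and glucose represses many genes for the use of other carbon sources through the repressor CreA. Genes carry numbered IDs that begin with NRRL3, and the table gives no names beside them. The available reference table, for assembly ASM285v2, held 0 of these IDs, so the members are given by ID and no role is assigned to any of them.

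Libraries held 12078576 to 20473260 counts on sugar beet pulp, 8006891 to 24501824 on wheat bran and 12822917 to 19406653 on glucose. The 3 libraries of wheat bran compartment 9 stood apart, with the lowest totals of all, 8006891 to 11847598, and size factors of 0.251 to 0.389 against 0.606 to 1.75 in the others. Without these 3 libraries, 35 of the 39 members still met the rule, whose condition on compartments 7 and 9 could then not be applied. In mycelium sampled whole, fewer hyphae of a kind and less RNA per hypha cannot be told apart. All members had counts in every library. The lowest count of any member in any library was 19 on sugar beet pulp, 6 on wheat bran and 4 on glucose, and all 39 passed the filter for low counts in the tests below.

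The members covered a wide range of levels. Their mean scaled counts ran from 54.4 to 10056 on sugar beet pulp (median 514), from 76.4 to 22252 on wheat bran (median 431) and from 17.2 to 2515 on glucose (median 127). Over both residues 11 members averaged 1000 or more and 9 under 200. The sugar beet pulp mean was 2.55 to 14.6 times the glucose mean, with a median of 3.16, and the wheat bran mean was 2.57 to 12.3 times, with a median of 4.49. Wheat bran was the higher residue for 30 members, by at least 2-fold for 12, and sugar beet pulp for 9, by at least 2-fold for 3. This balance turned with the scaling: with library size alone, wheat bran was the higher residue for 14 of the 39. That order was not the same everywhere: it held in 1 direction on all 3 plates for 14 members, and wheat bran was the higher residue for 30 members on plate A, 19 on plate B and 28 on plate C.

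**Figure D1:**
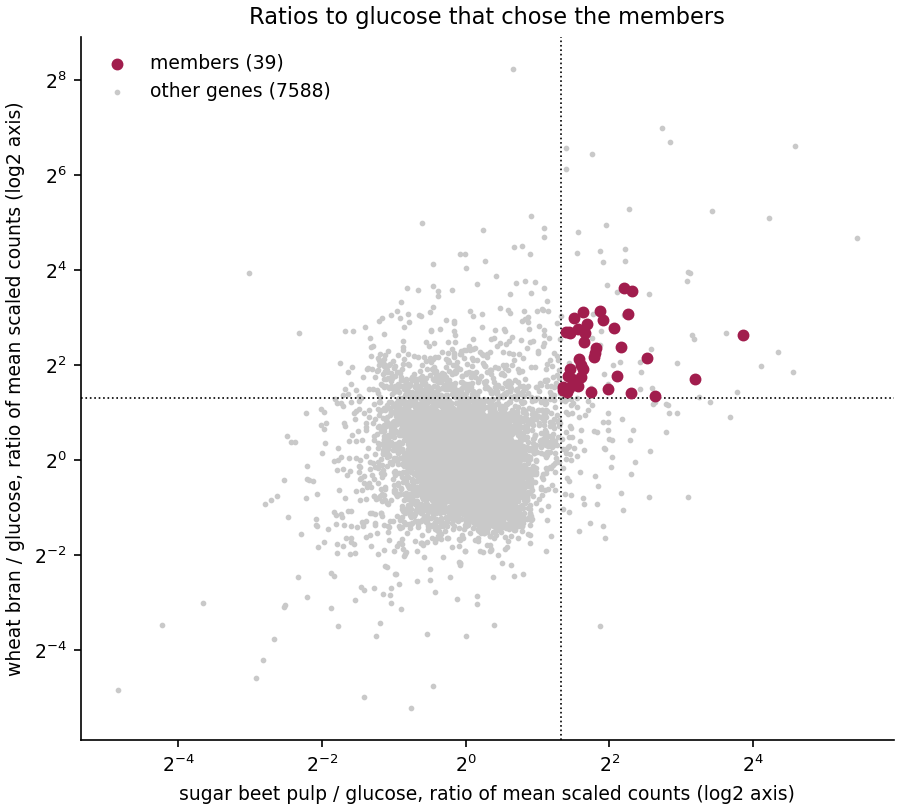
Ratio of mean scaled counts over glucose for sugar beet pulp (x axis, log2 axis) and wheat bran (y axis, log2 axis), for genes with both residue means of at least 50. The 39 members (dark red) lie past both dotted lines at 2.5, most of the 7588 other genes (grey) lie around a ratio of 1, and grey points past both lines failed another condition of the rule.

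The plates differed mainly on wheat bran. The median member stood at 3.26, 3.23 and 3.27 times glucose over sugar beet pulp on plates A, B and C, and at 5.33, 3.28 and 4.59 times over wheat bran. The coefficient of variation over plates had a median of 51.6% on wheat bran and 32.6% on sugar beet pulp, against 23.6% on glucose.

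Summed over members, the share of a library's counts ran from 0.223% to 1.16% for sugar beet pulp (median 0.531%), from 0.214% to 0.960% for wheat bran (median 0.416%) and from 0.0343% to 0.176% for glucose (median 0.0946%). Per plate it averaged 0.541% ± 0.0892, 0.509% ± 0.194 and 0.103% ± 0.0076 for these substrates in that order (SD, n = 3 plates). The lowest residue share, in wheat bran compartment 9 of plate C, was above the highest glucose share, in compartment 1 of plate B. The members were chosen for residue means above glucose, so this order largely restates the choice and nothing follows from it. The sum leans on few genes, since the 5 largest members made up 57.0% to 82.0% of it in every library.

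**Figure D2:**
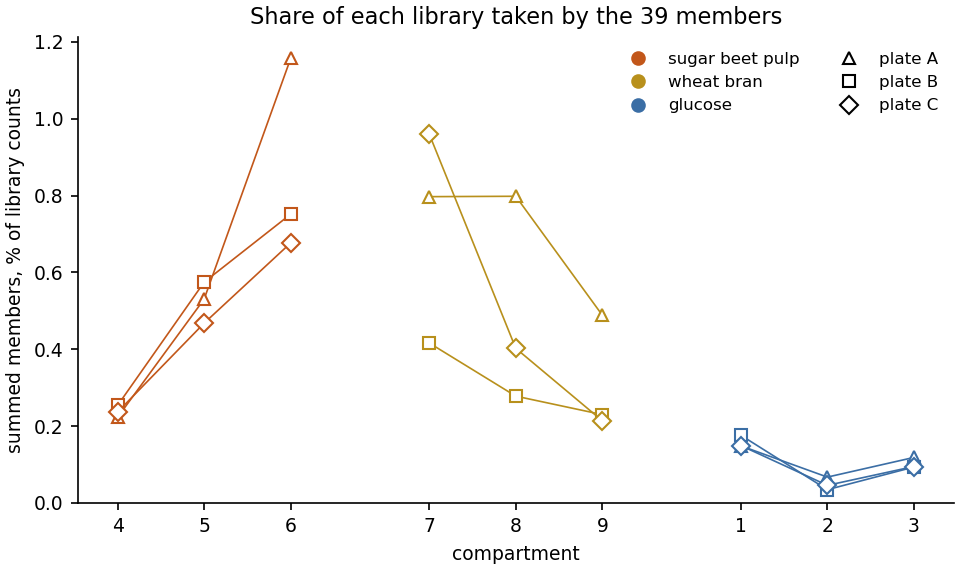
Summed counts of the 39 members as percent of all counts of a library (y axis) in each compartment (x axis). Lines join the compartments of a substrate on 1 plate. The 9 glucose libraries sit between 0.0343% and 0.176%, below all 18 residue libraries, an order set largely by the choice of members.

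NRRL3_11620 had the highest mean over both residues, at 15718 scaled counts, although NRRL3_6250 was higher on sugar beet pulp and, with library size as the sole scaling, also over both. NRRL3_11620 stood at 2184, 5579 and 5069 scaled counts in sugar beet pulp compartment 4 (plates A, B and C), at 6270, 5452 and 19236 in compartment 5, and at 9832, 10547 and 18479 in compartment 6. On wheat bran it stood at 16417, 11348 and 16498 in compartment 7, at 15997, 14594 and 16783 in 8, and at 50498, 28402 and 29731 in 9. Glucose libraries gave 6681, 1829 and 4451 in compartment 1, 1884, 1085 and 1326 in 2, and 1314, 2523 and 1538 in 3. All wheat bran libraries thus lay above all glucose libraries, whereas sugar beet pulp compartments 4 and 5 overlapped with glucose compartment 1. The sugar beet pulp mean was 9183 ± 4432 and the wheat bran mean 22252 ± 4883, against 2515 ± 743 for glucose (SD, n = 3 plates), or 3.65 and 8.85 times that of glucose.

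NRRL3_6250 was second by the mean over both residues, at 13987, first on sugar beet pulp but behind NRRL3_11620 and NRRL3_169 on wheat bran. There it reached 36877, 7130 and 36966 scaled counts in compartment 7 (plates A, B and C), 36609, 3500 and 12754 in compartment 8, and 21044, 2376 and 4003 in compartment 9. Plate B was lowest in all 3 of these compartments. On sugar beet pulp the plates were closer, with 3399, 3246 and 4394 in compartment 4, 8569, 10812 and 7507 in 5, and 18911, 20626 and 13038 in 6. Its glucose libraries ran from 855 to 4544, with a median of 1803. The ratios to glucose were 4.78 for sugar beet pulp and 8.51 for wheat bran, and without plate B the second was 11.7.

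By the smaller of both ratios, NRRL3_2828 and NRRL3_3789 stood farthest from glucose. That rank rests on 1 library, glucose compartment 1 of plate A. Without it, NRRL3_6252 had ratios of 7.36 for sugar beet pulp and 8.64 for wheat bran, in place of 4.48 and 5.26. For NRRL3_11255 the ratios became 7.19 and 14.97, in place of 3.75 and 7.80, and for NRRL3_10252 6.63 and 10.9, in place of 4.19 and 6.90. NRRL3_2828 was low in all glucose libraries, at 21.9 to 61.1 with a median of 32.5 scaled counts, against 60.9 to 1977 with a median of 355 on sugar beet pulp and 92.0 to 627 with a median of 150 on wheat bran. All wheat bran libraries lay above all glucose libraries, and on sugar beet pulp 1 value, in compartment 4 of plate C, fell just inside the glucose range. Its ratios were 14.6 for sugar beet pulp and 6.25 for wheat bran, and the first was 7.54 without plate A, whose compartment 6 library held its highest value.

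NRRL3_3789 rested on few libraries. On wheat bran it stood at 1283, 617 and 1387 scaled counts in compartment 7 (plates A, B and C), 4440, 134 and 160 in 8, and 1414, 40.5 and 43.9 in 9, against a glucose range of 39.6 to 149. On plate B compartments 8 and 9, and on plate C compartment 9, lay within the glucose range. On sugar beet pulp, compartment 4 of plates A, B and C (96.8, 75.3 and 59.9) and compartment 5 of plate C (118) also lay within it. The ratios were 4.97 for sugar beet pulp and 11.8 for wheat bran, and the wheat bran ratio was 5.11 without plate A. Leaving out the library of compartment 6 on plate A brought the sugar beet pulp ratio to 3.30. Such dependence on 1 library, with a ratio moved over 1.5 times, was found for 7 of the 39 members.

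The ends of the balance between residues were NRRL3_3382 and NRRL3_6071. NRRL3_3382 averaged 195.9 ± 70.3 scaled counts on wheat bran, against 69.4 ± 26.98 on sugar beet pulp and 24.4 ± 3.67 on glucose (SD, n = 3 plates), a wheat bran to sugar beet pulp ratio of 2.82. Its wheat bran libraries, at 114 to 323, all lay above its glucose libraries, at 12.6 to 55.7, while those on sugar beet pulp, at 15.2 to 152, overlapped with glucose. NRRL3_6071 had the opposite balance, with 267 ± 138 on wheat bran, 747 ± 464 on sugar beet pulp and 81.7 ± 20.8 on glucose, a ratio of 0.358. For this gene all sugar beet pulp libraries, at 290 to 1888, lay above all glucose libraries, at 32.5 to 141, while wheat bran libraries ran from 31.2 to 863.

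**Figure D3:**
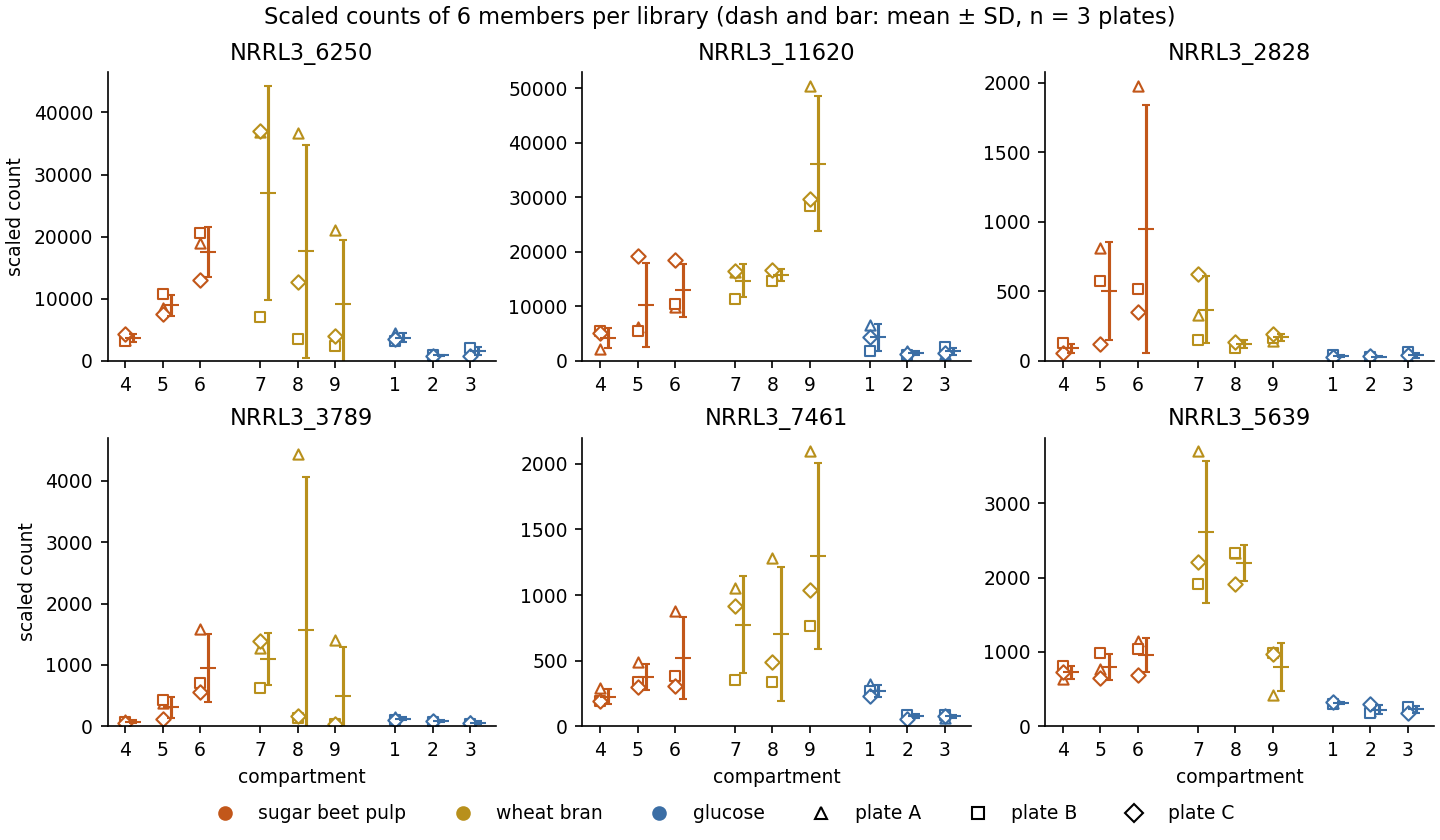
Scaled counts (y axis, linear) of 6 members in every library by compartment (x axis), with 1 symbol per plate and a dash and bar for the mean ± SD of n = 3 plates (bars end at 0 where they would pass below it). The plates spread widely in wheat bran compartment 8 for NRRL3_6250 and NRRL3_3789, and NRRL3_5639 has all 18 residue libraries above its 9 glucose libraries.

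Full separation of the libraries was rare. For 3 members, NRRL3_5639, NRRL3_6794 and NRRL3_965, named after their values were seen, the lowest of the 18 residue libraries lay above the highest glucose library. These 3 were the only such genes among the 7627 past the level limit (0.0393%). NRRL3_5639 ran from 637 to 1144 on sugar beet pulp (median 766) and from 422 to 3705 on wheat bran (median 1917), against 176 to 331 on glucose (median 263). NRRL3_965 ran from 457 to 1891 on sugar beet pulp and from 345 to 603 on wheat bran, against 127 to 292 on glucose. Taking the residues singly, 6 members had all sugar beet pulp libraries above all glucose libraries and 12 had all wheat bran libraries above them, against 0.354% and 1.60% of those genes. These shares describe the contrast that chose the members, and nothing follows from their size.

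Near the limit of 2.5, membership turned on small differences. NRRL3_7216 was just inside, with 144 ± 49.7 scaled counts over sugar beet pulp, 157 ± 80.4 over wheat bran and 56.5 ± 9.74 over glucose, and a smaller ratio of 2.55. NRRL3_5426, the next inside, had a smaller ratio of 2.56. NRRL3_10379 was just outside with a wheat bran ratio of 2.4997, at 242 ± 71.0 over sugar beet pulp, 205 ± 55.9 over wheat bran and 82.1 ± 13.9 over glucose, and NRRL3_4174 had a sugar beet pulp ratio of 2.4963 (SD, n = 3 plates). These differences are well inside the spread between plates.

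The choice was also seen on a plate that it did not use. Of 66 genes that met the rule on plates B and C, 45 were above glucose on both residues on plate A, or 68.2%, against 22.9% of all genes past the level limit on plates B and C. For plate B the count was 39 of 42 (92.9%, against 18.6%), and for plate C 41 of 42 (97.6%, against 26.7%). A ratio of at least 2.5 on both residues on the plate left out was met by 20, 13 and 20 of them in the same order (30.3%, 31.0% and 47.6%), against 1.39%, 1.21% and 1.68% of all genes past the level limit. Both residues share the glucose libraries of a plate, and genes of 1 colony are not independent, so the percentages are a description.

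On glucose and on sugar beet pulp most members had the same lowest and highest compartment. The ratios to glucose did not compare compartments within a section, but their means hold these same libraries. The leave-out step did use compartment 6 against 4. Relative to its own glucose mean, the median member stood at 1.93 in sugar beet pulp compartment 4, 3.11 in 5 and 4.22 in 6, at 5.51, 4.02 and 3.79 in wheat bran compartments 7, 8 and 9, and at 1.41, 0.570 and 0.916 in glucose compartments 1, 2 and 3. The counts that follow are largely set by the ratios to glucose that chose the members, and the same share over all genes was not taken. In each of compartments 5, 6, 7 and 8 all 39 members had a mean above every glucose compartment. In compartment 4 this held for 28 members, the other 11 lying below glucose compartment 1, and in compartment 9 for 36. The label of raised on both residues thus describes section means, and for those members not every compartment.

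**Figure D4:**
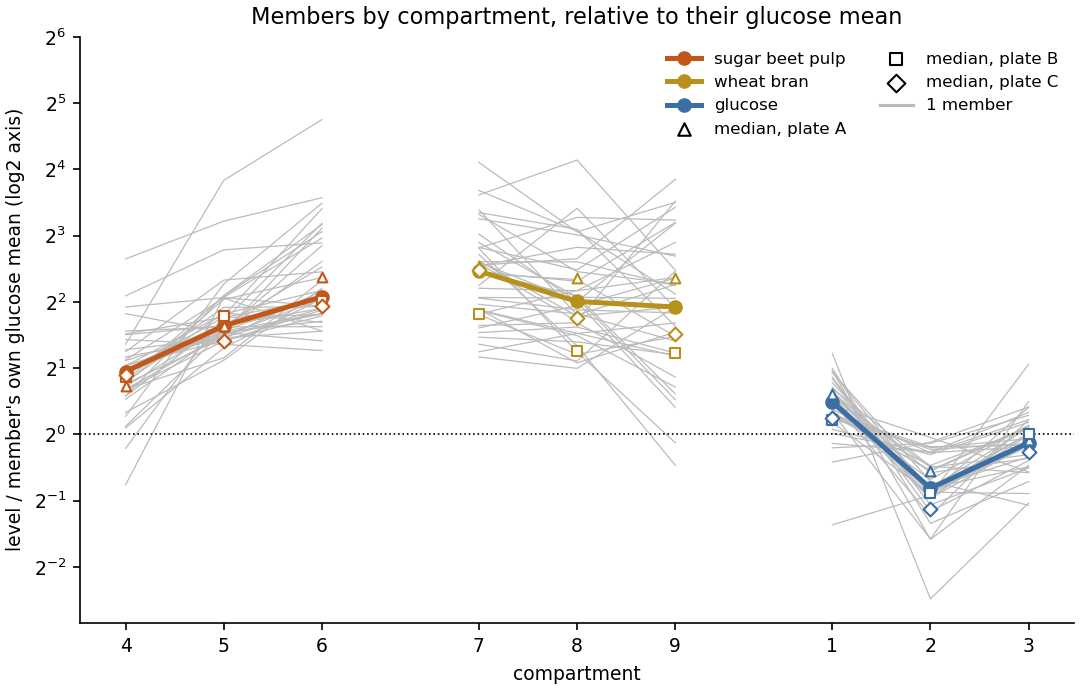
Level of each member over its own glucose mean (y axis, log2 axis) by compartment (x axis), as grey lines for compartment means, with coloured lines for the median over 39 members and open symbols for the median on each plate. On all 3 plates the median climbs from compartment 4 to 6 on sugar beet pulp and has its lowest glucose value in compartment 2, and plate B is lowest in all wheat bran compartments.

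On glucose, compartment 2 held the lowest mean for 32 of 39 members (82.1%), against 34.8% of the 7588 other genes past the level limit, and compartment 1 the highest for 31 (79.5%, against 32.9%). Plate by plate, compartment 2 was lower than 1 on all 3 plates for 28 members, against 11.7% of the 7627 genes, and higher on all 3 for 0 members, against 14.9%. Compartment 3 was higher than 2 on all 3 plates for 17 members, against 16.4%, and lower for 1, against 8.21%. With scaling by library size alone, compartment 2 was lowest for 35 members (89.7%) and for 62.1% of other genes. The members share their libraries, so a library that is low as a whole moves them together.

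By the edgeR quasi-likelihood F-test among glucose compartments 1, 2 and 3, a single member, NRRL3_7461, passed an adjusted p of 0.05, where 0.118% of 10990 genes did. It had 320, 267 and 227 scaled counts in compartment 1 (plates A, B and C), 84.5, 89.8 and 57.8 in compartment 2, and 66.3, 85.9 and 76.7 in compartment 3. The values of compartment 1 lay above all those of 2 and 3. The log2 fold change was -1.79 for compartment 2 over 1 and -1.77 for 3 over 1, and the edgeR adjusted p was 0.0340 by Benjamini-Hochberg. It was 0.0795 without plate A, 1.00 without plate C, 0.172 without the plate block, 0.0584 with scaling by library size alone, 0.307 with the glucose libraries alone and 0.000103 with DESeq2, so the call rests on the setting. At an unadjusted p under 0.05 the edgeR test had 19 of the 39 members and 7.41% of all genes.

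On the residues NRRL3_7461 was highest in compartments 6 and 9. Its means were 226 ± 58.0, 376 ± 102 and 520 ± 311 scaled counts in sugar beet pulp compartments 4, 5 and 6, and 775 ± 371, 703 ± 507 and 1298 ± 706 in wheat bran compartments 7, 8 and 9 (SD, n = 3 plates). Compartment 4, at 191 to 293 across plates, overlapped with glucose compartment 1, at 227 to 320.

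On sugar beet pulp, compartment 4 had the lowest mean of the section for 37 members (94.9%), against 45.1% of other genes, and compartment 6 the highest for 34 (87.2%, against 30.0%). Compartment 5 was above 4 on all 3 plates for 22 members, against 27.8% of the 7627 genes, and below it for 0, against 23.1%. Compartment 6 was above 5 on all 3 plates for 18 members, against 8.92%, and below it for 0, against 17.9%. From the deposited counts, the log2 fold change of compartment 5 over 4 had a median of 0.72 over the members and of -0.01 over all 10990 genes, with 37 of 39 members above 0. The edgeR quasi-likelihood test called 0 members at an adjusted p under 0.05, where 0.127% of all genes passed, 0.00910% as higher and 0.118% as lower. DESeq2 called 2 members, against 0.347% of all genes, and a fit of the sugar beet pulp libraries alone called 8, against 4.96%, all higher in compartment 5. At an unadjusted p under 0.05 the edgeR test had 12 members, against 5.24% of all genes. For compartment 6 over 5 the median was 0.38 over the members, against -0.02 over all genes, and 33 members were above 0. Here edgeR called 0 members and 0.00% of all genes, DESeq2 called 0, and 6 members, against 1.29% of all genes, had an unadjusted p under 0.05.

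NRRL3_2828 had the lowest adjusted p of the members for compartment 5 over 4, and did not pass. It stood at 811, 577 and 120 scaled counts in compartment 5 (plates A, B and C), against 84.6, 126 and 60.9 in compartment 4. Compartment 5 was higher on every plate, while plate C in compartment 5 lay below plate B in compartment 4. The log2 fold change was 2.39 (SE 0.62), with a Benjamini-Hochberg adjusted p of 0.244 by edgeR.

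With library size as the sole scaling, the median for compartment 5 over 4 was 0.26 over all genes and 1.00 over the members, and still 0 members were called.

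The pairs 6 over 4 and 9 over 7 were not tested, because the rule had used them to leave genes out. With those 19 genes put back, compartment 2 was lowest on glucose for 48 of 58 genes, so the order on glucose did not depend on that step. Compartment 4 was lowest on sugar beet pulp for 56 of 58. That count cannot show whether the step mattered there, because the genes put back were picked for compartment 4 lying far below 6.

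On wheat bran the order was less uniform among the members. Compartment 7 had the highest mean for 22 members (56.4%), against 40.4% of other genes, and compartment 9 the lowest for 21 (53.8%, against 45.9%). With the 19 genes left out by the compartment condition put back, compartment 7 was highest and compartment 9 lowest for 40 of 58 genes each (69.0%). The median log2 fold changes were then -0.67 for compartment 8 over 7 and -0.72 for 9 over 8. The genes put back were picked for compartment 7 lying far above 9. These values therefore cannot show whether the step mattered here. For the 39 members, the log2 fold change of compartment 8 over 7 had a median of -0.30 over the members and -0.02 over all genes, and 7 of 39 members were above 0. On all 3 plates 12 members were lower in 8 than in 7, against 22.1% of the 7627 genes, and 1 was higher, against 12.8%. The edgeR quasi-likelihood test called 0 members and 0.00% of all genes, DESeq2 called 0 members, and 5 members had an unadjusted p under 0.05, against 5.64% of all genes.

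Compartment 9 differed from 8 in 6 of the 39 members, or 15.4%, by the edgeR quasi-likelihood test, where 23.8% of all genes passed, so the members were no more often called than genes at large. Of these, 1 was higher in compartment 9, against 10.8% of all genes, and 5 were lower, against 12.9%. On all 3 plates 11 members were lower in 9, against 31.4% of the 7627 genes, and 7 higher, against 31.0%. The median log2 fold change was -0.24 over the members and -0.02 over all genes. With library size as the sole scaling, the median of all genes was -0.61, that of the members -0.80, and 11 members were called, all lower, against 26.6% of all genes in either direction. Without plate C edgeR called 0 members, against 1.41% of all genes. In that fit 8 of the 39 members had an unadjusted p under 0.05, against 2501 of the 11029 genes tested. Without plate A it called 3 members, against 10.1% of all genes, and without plate B 4, against 21.0%, all lower.

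NRRL3_5639 had the lowest adjusted p of the called members. It stood at 422, 991 and 977 scaled counts in compartment 9 (plates A, B and C), against 2331, 2330 and 1914 in compartment 8, with no overlap. The log2 fold change was -1.50 (SE 0.33), and its adjusted p by edgeR was 0.00289, or 0.0577 without plate C. NRRL3_258 had 61.7, 106 and 35.9 in compartment 9, against 190.6, 200.0 and 197.8 in compartment 8, again with no overlap. Its log2 fold change was -1.59 (SE 0.38, edgeR adjusted p = 0.00490), and the adjusted p was 0.138 without plate C. In compartment 9 the mean of NRRL3_258, 67.9 ± 35.5 (SD, n = 3 plates), lay below that of glucose compartment 1, 73.1 ± 12.4, and its counts there were 24, 34 and 9.

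NRRL3_8370 was the member higher in compartment 9. It stood at 167, 159 and 43.9 scaled counts there, against 69.7, 49.1 and 26.0 in compartment 8. Compartment 9 was higher on every plate, but the groups overlapped, because the value of plate C in compartment 9 lay below those of plates A and B in compartment 8. The log2 fold change was 1.29 (SE 0.42), with an adjusted p of 0.0286 by edgeR. The call was lost on leaving out any plate, with adjusted p from 0.0723 to 0.197, and with scaling by library size alone, at a log2 fold change of 0.71.

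**Figure D5:**
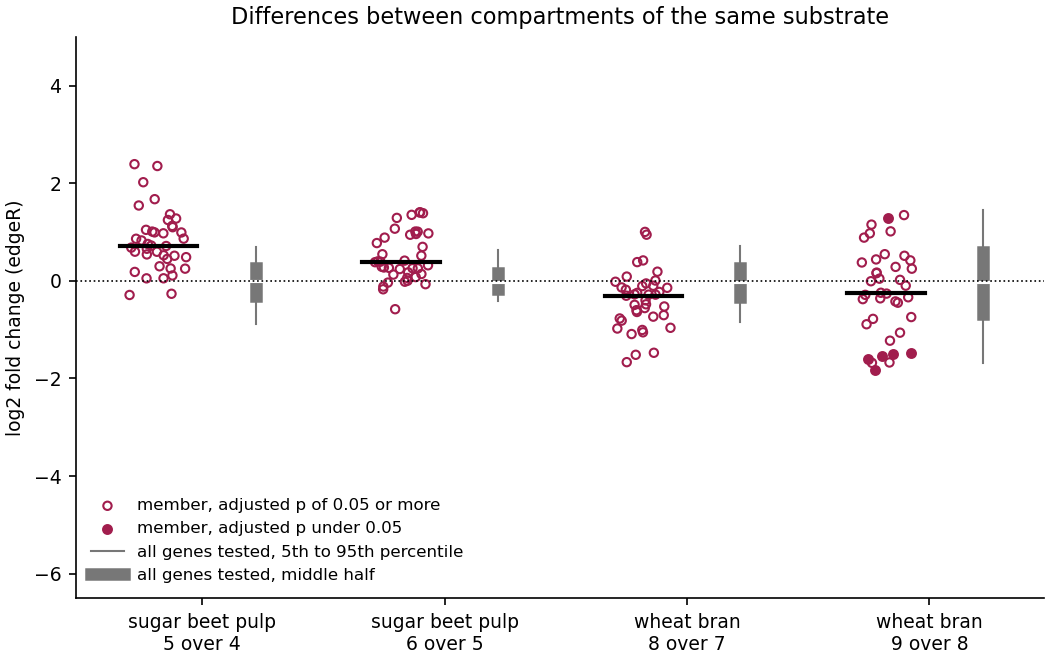
Log2 fold change (y axis, edgeR) between compartments of the same substrate (x axis) for the 39 members (red circles, filled at an adjusted p under 0.05, black line for their median) and for all 10990 genes tested (grey bars). The members' median lies at 0.72 and 0.38 in the sugar beet pulp pairs and at -0.30 and -0.24 in the wheat bran pairs, and filled circles appear for compartment 9 over 8 only.

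Among the 39 members a single pair had consecutive IDs, NRRL3_10377 and NRRL3_10378, followed by NRRL3_10379 just outside the limit. NRRL3_10377 averaged 86.1 ± 25.7 scaled counts over sugar beet pulp, 86.1 ± 2.47 over wheat bran and 29.2 ± 6.19 over glucose, and NRRL3_10378 averaged 674 ± 279 and 714 ± 265 there, against 249 ± 58.3 (SD, n = 3 plates). The 3 genes had ratios of 2.95, 2.70 and 2.94 for sugar beet pulp and 2.95, 2.86 and 2.4997 for wheat bran. Of 2 pairs that were 2 IDs apart, NRRL3_6250 and NRRL3_6252 enclosed NRRL3_6251, with ratios of 1.90 and 1.70 to glucose, and NRRL3_965 and NRRL3_967 enclosed NRRL3_966, with 0.863 and 1.10. With the genes left out by the compartment condition put back, 4 pairs were consecutive, and 2 of the added pairs held a member, NRRL3_6250 after NRRL3_6249 and NRRL3_7470 after NRRL3_7469. NRRL3_7460, the ID before NRRL3_7461, failed the 3-fold limit as well as the compartment condition, with means of 4471 scaled counts in compartment 6 and 10545 in compartment 7, against 62.2 to 91.7 in the glucose compartments. The genes of these last pairs and NRRL3_7460 were named after their values were seen, and whether neighbouring IDs lie side by side in the genome was not analysed here.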

How the data were processed

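The authors deposited whole-number read counts per gene, with no normalization, for 27 libraries made per the labels' protocols from SMARTer full-length cDNA on an Ion Proton. The submitters' processing notes name HTSeq and DESeq2, with neither version nor role. Aligner, build, annotation and strand setting were not given in the sources used here, so values of close paralogs and overlapping genes are uncertain. All 27 columns matched a label, 0 other columns were found and 0 lines lacked a gene.

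Scaled counts are counts divided by median-of-ratios size factors from 10543 genes with no 0. Means and SDs are over 3 plates. Tests used edgeR 4.0.16 in R 4.3.3 on the deposited counts: quasi-likelihood F-test, TMM factors, filterByExpr, all 27 libraries, 9 compartment groups, plate as block, 16 residual degrees of freedom, two-sided, with Benjamini-Hochberg adjustment over the 10990 genes kept and a threshold of 0.05. Standard errors are the log2 fold change over the square root of F. The tests among glucose compartments and of compartment 9 over 8 were also run on simulated counts. These held no plate effect and, known changes apart, the same gene proportions in every library, so the real libraries' differences were not covered. DESeq2 1.42.0 was an alternative. Figures used matplotlib 3.10.9.

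The plate block comes from the labels, since the 9 libraries of a plate are 1 colony. Deviations from compartment means had a mean correlation of 0.154 between libraries of the same plate (108 pairs, 66 of them over 0.1). Between plates it was -0.0754 (216 pairs), a value that largely follows from the first, because the mean over plates was subtracted. No libraries were duplicates: within a compartment, chi-square over its degrees of freedom was at least 29.2.

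The members, comparisons and naming rule were chosen with earlier results of these data known. Named were the 2 members with the highest mean over both residues, the 2 with the largest smaller ratio, those at both ends of the wheat bran to sugar beet pulp ratio, the 2 on each side of the 2.5-fold limit, the longest ID run, and per test at most 2 called members in each direction. Without gene names, no pathway list was used here.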

Additional observations from a re-analysis of the deposited data

How the results depend on the processing

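The number of members, 39, depends on the limits of the rule: 85 genes met a fold of 2, 21 a fold of 3, 24 lay within 2-fold, 59 remained with neither leave-out step, and leaving out 1 plate gave 42 to 66. Without wheat bran compartment 9, where the compartment condition could not be applied, 66 genes met it, 35 of them members. Wheat bran was the higher residue for 30 members, for 29 with TMM and for 14 with library size scaling, both added after seeing the data. TMM scaling gave 42 genes, 37 of them members, and library size scaling 54, with 21. That scaling moved the median log2 ratio to glucose of genes past the level limit from 0.06 to 0.49 on sugar beet pulp and from -0.05 to -0.41 on wheat bran.

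Members called among the glucose compartments numbered 1 in the report. There were 0 with no replicate block, with library size scaling and with the glucose libraries alone (0.0728%, 0.0819% and 0.00% of all genes). There were 6 with DESeq2 (1.11%), 0 to 4 on leaving out 1 plate (0.00% to 2.51%), and 2 of 58 without the compartment condition (0.118%). For sugar beet pulp compartment 5 over 4, 0 became 2 with DESeq2 (0.347%) and 8 with that section alone (4.96%). For wheat bran compartment 9 over 8, 6 became 11 with library size scaling (26.6%), 10 with that section alone (23.6%), 10 of 58 without the compartment condition (23.8%), 5 with no replicate block (20.6%), 9 with DESeq2 (29.2%), and 0 to 4 on leaving out 1 plate (1.41% to 21.0%). Testing without the filter on low counts gave the same numbers of members. Fits without the compartment 9 libraries, added after seeing the data, gave 1, 0, 0 and 0 members in the 4 comparisons that do not use them. The cause was not tested. The called log2 fold changes of compartment 9 over 8 kept their direction under these alternatives. Depth limits wheat bran compartment 9 most, where NRRL3_8370 had 65, 51 and 11 counts on plates A, B and C.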
